A study of Mus musculus with 27 samples.

Results

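Adhesion, membrane fusion and membrane repair were followed in C2C12 cells, an established mouse myoblast line, through 7 genes: Mymk (myomaker), Cdh15, Jam2, Jam3, Cav3, Dysf and Myof. They were chosen by name, for their known roles and with earlier results of these data known. All 7 were found among the 24825 gene rows of the deposited tables. RNA-seq was available for 27 samples in 9 groups of 3 replicates. Cells carried a pMXs retroviral vector for control, full-length NFIA (nuclear factor I-A, a DNA-binding transcription factor) or the Δpro#3 mutant, an NFIA that lacks the C-terminal stretch the study calls pro#3. Samples were taken at day 0, at day 7, and at day 7 following 4 h of 10 µM forskolin. Control cells received the same adipogenic treatment as the others, that is isobutylmethylxanthine, indomethacin, dexamethasone, insulin, triiodothyronine and rosiglitazone followed by insulin, triiodothyronine and rosiglitazone. Levels are in FPKM, a fragment count divided by gene length and by the size of the library, and can be compared between genes because they are per length. The labels do not say whether replicates were separate cultures, so p-values measure the spread between these samples, which may be technical.

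Skeletal muscle fibers arise when mononucleated myoblasts align, adhere through cadherins and junctional adhesion molecules, and merge their membranes through the muscle-specific membrane proteins myomaker and myomixer. The resulting fiber is mechanically stressed and reseals tears in its membrane by calcium-triggered vesicle fusion, in which the ferlin dysferlin, caveolin-3, annexins and the E3 ligase MG53 (Trim72) take part. Myoferlin, a close relative of dysferlin, is known as the ferlin of the proliferating and fusing myoblast, whereas dysferlin and caveolin-3 mark the maturing fiber.

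The depth was 9567769 to 27230965 fragments per sample, with a median of 17707223. Nfia itself lay at 0.0885 to 7.35 FPKM in control cells, 225 to 594 FPKM with full-length NFIA and 262 to 480.5 FPKM with the Δpro#3 mutant. The level set control libraries apart from those with a construct. Between the constructs it differed by time: at day 0 it was 225 to 250.2 FPKM with full-length NFIA and 397 to 423 with the mutant, at day 7 the samples overlapped (457 to 528 and 374 to 480.5), and after forskolin it was 497 to 594 with full-length NFIA and 262 to 344 with the mutant. Replicate 2 of the control cells at day 0 held the highest Nfia value among control samples (7.35 FPKM), and every count of members called was the same without it. Summed over 12 myocyte markers, the level at day 7 was 10471 to 12148 FPKM in control cells, 1804 to 2440 in full-length NFIA-expressing cells and 11693 to 12180 in Δpro#3 mutant-expressing cells. Summed over 9 adipocyte markers it was 363 to 401, 13580 to 15095 and 636 to 2053 FPKM, with the high end of the last range set by replicate 1. The 7 endothelial markers never summed to more than 1.44 FPKM, and of the 7 leukocyte markers Cd68 was the 1 that reached 1 FPKM, with a maximum of 26.4, while Ptprc (CD45) stayed at or below 0.0272. The part of these marker levels in the results below was not tested.

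The 7 genes did not change as a block. Mymk was the member most reduced at day 0 by both constructs, and it rose in all 3 cell types by day 7. Cdh15 was lower with both constructs at day 0, and at day 7 it was lower with full-length NFIA and higher with the Δpro#3 mutant. Cav3 was near the floor at day 0 in all cells and rose by day 7 far more in control than in full-length NFIA-expressing cells. Dysf was higher with both constructs at day 0 and lower with both at day 7. With the mutant the day 7 call of Dysf was lost when any single sample of the groups compared was left out. Myof, Jam2 and Jam3 were highest at day 0 in every cell type. Log2 fold changes below are on the log2(FPKM + 1) scale with the standard error of limma, adjusted p-values are limma's after Benjamini-Hochberg adjustment over all genes of a comparison, and ratios are of mean FPKM. In bulk RNA, fewer cells of a type and less RNA per cell cannot be told apart.

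**Figure D1:**
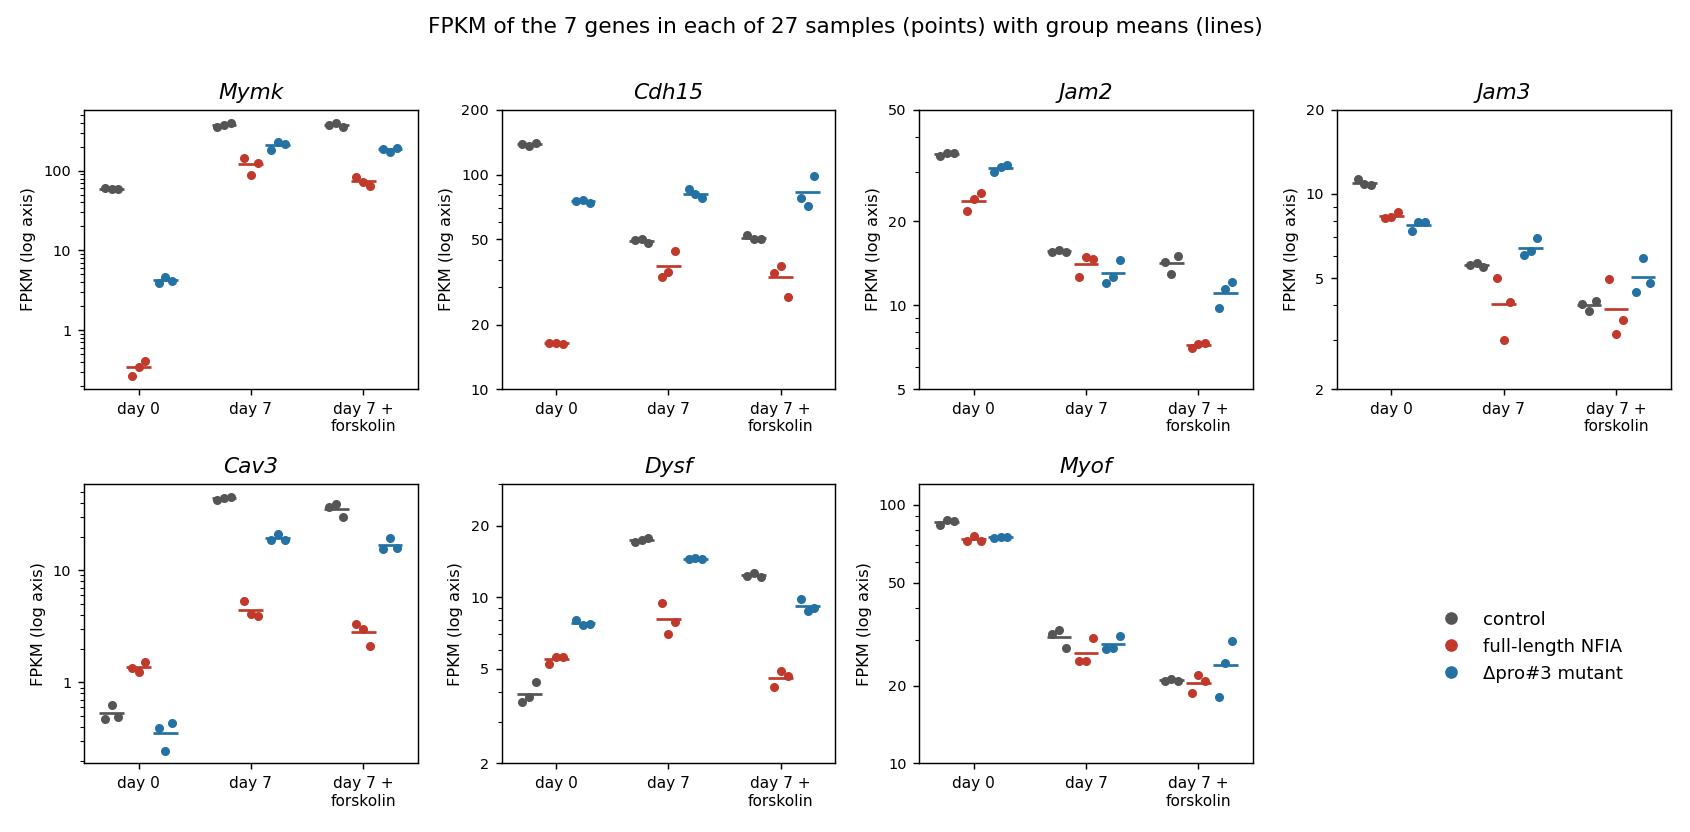
FPKM (log axis) of the 7 genes in control (grey), full-length NFIA-expressing (red) and Δpro#3 mutant-expressing cells (blue) at day 0, day 7 and day 7 with forskolin, with 1 point per sample and a line at the mean of the 3 replicates. Mymk at day 0 runs from 0.261 FPKM with full-length NFIA to 61.4 FPKM in control cells, while Myof, Jam2 and Jam3 step down from day 0 to day 7 in all cells. The step of Jam3 in mutant cells is small (log2 fold change -0.24), and its call was lost after median-ratio scaling.

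NFIA acts through DNA, and myogenic factors such as MyoD and myogenin recognise E-boxes (CANNTG), so the 250 bases upstream of the annotated start are shown for 4 members with different patterns. They come from RefSeq on GRCm38.p6, a later build than the mm9 build of the files, and 4 of the 7 members (Cdh15, Cav3, Dysf and Myof) matched. Capitals mark E-boxes, and each line reads 5′ to 3′ on the strand of the gene.
Cdh15, chr8:122848124-122848373, plus strand: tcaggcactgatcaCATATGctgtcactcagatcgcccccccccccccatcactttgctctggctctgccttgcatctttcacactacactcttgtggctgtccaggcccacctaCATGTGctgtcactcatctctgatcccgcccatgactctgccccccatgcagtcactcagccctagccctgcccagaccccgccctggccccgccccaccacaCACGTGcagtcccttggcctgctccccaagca
Cav3, chr6:112459255-112459504, plus strand: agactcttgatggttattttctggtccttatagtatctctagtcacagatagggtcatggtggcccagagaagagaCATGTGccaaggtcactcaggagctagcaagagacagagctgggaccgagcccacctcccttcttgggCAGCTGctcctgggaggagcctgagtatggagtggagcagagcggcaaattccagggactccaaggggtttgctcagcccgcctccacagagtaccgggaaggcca
Dysf, chr6:84008348-84008597, plus strand: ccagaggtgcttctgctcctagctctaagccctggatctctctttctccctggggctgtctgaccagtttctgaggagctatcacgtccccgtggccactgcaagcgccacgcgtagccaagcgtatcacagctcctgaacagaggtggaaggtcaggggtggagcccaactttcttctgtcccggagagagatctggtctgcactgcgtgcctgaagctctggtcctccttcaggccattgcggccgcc
Myof, chr19:38043578-38043827, minus strand: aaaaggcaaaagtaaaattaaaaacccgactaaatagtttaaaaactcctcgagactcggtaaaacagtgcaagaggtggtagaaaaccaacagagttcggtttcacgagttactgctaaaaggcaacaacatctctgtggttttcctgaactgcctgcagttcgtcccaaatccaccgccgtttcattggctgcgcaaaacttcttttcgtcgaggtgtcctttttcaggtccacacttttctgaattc
The Cdh15 stretch held 3 E-boxes, namely CATATG starting 236 bases before the start, CATGTG starting 135 bases before it and CACGTG starting 32 bases before it. That of Cav3 held 2, CATGTG starting 174 bases and CAGCTG starting 106 bases before the start. CANNTG reads the same on both strands. The Dysf stretch shown, that of the other annotated Dysf start and the Myof stretch held no CANNTG. An E-box was found in 66.2% of 32851 annotated promoters of the same length, and CAGCTG, which overlaps CANNTG, in 13%. The letters TTGGC, a half-site of NFI factors searched on both strands, occurred 1 time in each of these stretches and in 41.5% of all promoters. These matches describe letters and not sites in use.

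Mymk encodes myomaker, the multipass membrane protein that controls the merging of myoblast membranes. It lies on the minus strand at chr2:26917156-26927699 (mm9), annotated there as Tmem8c. At day 0 it measured 61.4, 59.1 and 58.6 FPKM in control cells, 0.261, 0.345 and 0.414 FPKM with full-length NFIA and 3.94, 4.66 and 4.11 FPKM with the mutant. The 3 groups did not overlap, and the myocyte markers summed to 1413 to 1496, 138 to 146 and 413 to 422 FPKM in the same samples. The mean was 175-fold lower with full-length NFIA (log2 fold change -5.50, SE 0.06, adjusted p = 1.55e-13) and 14.1-fold lower with the mutant (log2 fold change -3.54, SE 0.06, adjusted p = 1.73e-11). The mutant lay 12.5-fold above full-length NFIA (adjusted p = 6.55e-10). The full-length NFIA value rested on 30 fragments over 3 samples, against 6856 in control cells.

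By day 7 Mymk read 358, 373 and 402 FPKM in control cells, 145, 89.2 and 126 FPKM with full-length NFIA and 184, 228 and 219 FPKM with the mutant. Control samples were all above mutant samples and these all above full-length NFIA samples. Against control cells the log2 fold change was -1.67 (SE 0.15, adjusted p = 3.84e-06) with full-length NFIA and -0.85 (SE 0.15, adjusted p = 0.00135) with the mutant. Day 7 over day 0 the gene rose 6.34-fold in control cells, 354-fold with full-length NFIA and 49.6-fold with the mutant (adjusted p = 5.86e-12, 5.19e-17 and 6.82e-16). The effect of full-length NFIA was thus smaller in size at day 7 than at day 0, a difference of 3.83 (SE 0.18, adjusted p = 9.84e-12) on the log2 scale, or 5.77 by limma-voom on fragments. After forskolin the values were 379, 403 and 355 in control cells, 82.8, 73.3 and 64.2 with full-length NFIA and 190.0, 174 and 193 with the mutant. Forskolin lowered Mymk in full-length NFIA-expressing cells (log2 fold change -0.68, SE 0.14, adjusted p = 0.000466). In control cells the change was 0.00345 (95% interval -0.28 to 0.29), and the response differed between these cell types (difference -0.69, SE 0.19, adjusted p = 0.0128). Over the 9 groups the mean of Mymk spanned 1114-fold, and of the 8 neighbouring groups in that order 2 pairs overlapped, control cells with and without forskolin and mutant cells with and without forskolin.

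Mymx, the small membrane protein (myomixer) that completes membrane fusion, was read beside it as its partner. It measured 15.2, 13.8 and 15.4 FPKM in control cells at day 0, 0.0400, 0 and 0 FPKM with full-length NFIA and 0.421, 0.417 and 0.593 FPKM with the mutant. The full-length NFIA samples together held 1 fragment. At day 7 the samples read 43.8, 44.02 and 52.6 FPKM in control cells, 7.07, 4.92 and 8.34 FPKM with full-length NFIA and 9.78, 15.9 and 14.1 FPKM with the mutant, so the groups stood apart at both times. Against control cells at day 7 the log2 fold change of Mymx was -2.64 (SE 0.19, adjusted p = 5.65e-07) with full-length NFIA and -1.77 (SE 0.19, adjusted p = 5.26e-05) with the mutant. The Mymk to Mymx ratio of FPKM at day 7 was 8.10 in control cells, 17.8 with full-length NFIA and 16.1 with the mutant (log2 ratios 3.02 ± 0.08, 4.15 ± 0.22 and 4.01 ± 0.20, SD, n = 3).

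Cdh15 encodes M-cadherin, the calcium-dependent adhesion molecule of myoblasts and satellite cells, at chr8:125371866-125391297 (mm9, plus strand). At day 0 it measured 138, 136 and 140.2 FPKM in control cells, 16.4, 16.5 and 16.2 FPKM with full-length NFIA and 75.4, 76.1 and 73.6 FPKM with the mutant. The 3 groups did not overlap. The mean was 8.44-fold lower with full-length NFIA (log2 fold change -3.00, SE 0.03, adjusted p = 6.61e-14) and 1.84-fold lower with the mutant (log2 fold change -0.87, SE 0.03, adjusted p = 5.74e-10). With full-length NFIA it was therefore at 0.119 of the control level, and with the mutant at 0.543 of it.

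The order of the cell types for Cdh15 was another at day 7. Control samples read 49.4, 50.2 and 48.2 FPKM, full-length NFIA samples 33.2, 35.2 and 44.3 FPKM and mutant samples 85.5, 81.4 and 77.5 FPKM. All mutant samples lay above all control samples, and these above all full-length NFIA samples. The log2 fold change was -0.39 (SE 0.09, adjusted p = 0.00297) with full-length NFIA and 0.71 (SE 0.09, adjusted p = 0.000172) with the mutant. From day 0 to day 7 Cdh15 fell 2.80-fold in control cells (adjusted p = 7.21e-12) and rose 2.29-fold in full-length NFIA-expressing cells (adjusted p = 1.48e-10). In mutant cells its change was 0.12 on the log2 scale (95% interval -0.03 to 0.27, adjusted p = 0.14), and it passed the test after median-ratio scaling between samples (0.25, adjusted p = 0.00482), in the fit of those 2 groups alone (adjusted p = 0.0499) and without full-length NFIA replicate 3 at day 7 (adjusted p = 0.0107). The effect on Cdh15 differed between day 7 and day 0 by 2.61 (SE 0.10, adjusted p = 9.65e-13) for full-length NFIA and by 1.59 (SE 0.10, adjusted p = 2.61e-09) for the mutant. After forskolin the samples read 52.2, 50.1 and 50.2 in control cells, 34.8, 37.6 and 26.98 with full-length NFIA and 78.1, 71.2 and 98.6 with the mutant, and no cell type had a Cdh15 response to forskolin that passed the test (log2 fold changes 0.04, -0.18 and 0.01, with 95% intervals of -0.21 to 0.30, -0.44 to 0.08 and -0.25 to 0.27).

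Cdh2, the N-cadherin that myoblasts also carry, moved differently. At day 0 its 9 samples lay between 16.3 and 18.4 FPKM, and the difference from control cells was 0.03 on the log2 scale with full-length NFIA (95% interval -0.05 to 0.11, adjusted p = 0.481). At day 7 it measured 16.3, 16.3 and 15.7 FPKM in control cells, 4.21, 3.32 and 4.57 FPKM with full-length NFIA and 11.8, 10.8 and 10.3 FPKM with the mutant. The log2 fold change at day 7 was -1.77 (SE 0.09, adjusted p = 5.23e-08) with full-length NFIA. Cdh15 stood 8.14-fold above Cdh2 in control cells at day 0 and level with it (ratio 0.944) in full-length NFIA-expressing cells. At day 7 the Cdh15 to Cdh2 ratio was 3.06 in control cells, 9.32 with full-length NFIA and 7.43 with the mutant.

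Jam2 and Jam3 encode the junctional adhesion molecules JAM-B and JAM-C, immunoglobulin-type surface proteins that bind each other across the contact between cells. Jam2 lies at chr16:84774368-84826173 on the plus strand and Jam3 at chr9:26904969-26963003 on the minus strand (mm9). For Jam2 at day 0, control samples read 34.1, 34.9 and 35.0 FPKM, full-length NFIA samples 21.7, 23.9 and 25.3 FPKM and mutant samples 29.9, 31.2 and 31.7 FPKM, without overlap. The log2 fold change was -0.54 (SE 0.05, adjusted p = 1.96e-06) with full-length NFIA. With the mutant it was -0.16 (SE 0.05, adjusted p = 0.0143), and the call was lost without mutant replicate 1 (-0.14, adjusted p = 0.0581), with no filter on low values (adjusted p = 0.0615) and with all 27 samples in 1 fit (adjusted p = 0.0775). At day 7 the Jam2 samples read 15.5, 15.7 and 15.5 in control cells, 12.6, 14.9 and 14.7 with full-length NFIA and 11.99, 12.6 and 14.5 with the mutant. The full-length NFIA difference was -0.14 (95% interval -0.32 to 0.04, adjusted p = 0.137). The mutant difference of -0.24 (adjusted p = 0.0292) was lost in 5 of the 6 fits that left out 1 sample of the 2 groups (adjusted p from 0.0645 without control replicate 3 to 0.0904 without mutant replicate 1), after scaling (-0.19, adjusted p = 0.0804) and with no filter on low values (adjusted p = 0.0846).

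Forskolin set Jam2 apart in full-length NFIA-expressing cells. After forskolin it read 14.3, 12.96 and 15.04 FPKM in control cells, 7.02, 7.25 and 7.34 FPKM with full-length NFIA and 9.75, 11.5 and 12.1 FPKM with the mutant, in groups that did not overlap. Full-length NFIA-expressing cells fell 1.95-fold on forskolin (log2 fold change -0.87, SE 0.08, adjusted p = 2.36e-07). In control cells the change was -0.14 (95% interval -0.31 to 0.04, adjusted p = 0.28) and in mutant cells -0.22 (95% interval -0.39 to -0.04, adjusted p = 0.0507). The latter passed the test without mutant replicate 1 at day 7 (adjusted p = 0.033), without mutant replicate 3 after forskolin (0.0304), without full-length NFIA replicate 1 at day 7 (0.0399) or without control replicate 2 after forskolin (0.0478). With no sample left out, this fall in mutant cells passed with all 27 samples in 1 fit (0.022) and by limma-voom on fragments (0.036). It also passed with a minimum mean of 5 FPKM (0.0456) and with a replicate block (0.024). The response of Jam2 differed between full-length NFIA-expressing and control cells by -0.74 (SE 0.12, adjusted p = 0.000177).

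Jam3 was the least abundant of the adhesion members. At day 0 it measured 11.3, 10.8 and 10.8 FPKM in control cells, 8.18, 8.25 and 8.61 FPKM with full-length NFIA and 7.39, 7.91 and 7.95 FPKM with the mutant. Both constructs stood below all control samples, with log2 fold changes of -0.36 (adjusted p = 1.1e-05) and -0.45 (adjusted p = 2.79e-06). At day 7 the samples read 5.56, 5.64 and 5.46 in control cells, 4.99, 3.01 and 4.09 with full-length NFIA and 6.06, 6.25 and 6.97 with the mutant. The full-length NFIA samples spread widely and lay below control cells (log2 fold change -0.40, SE 0.12, adjusted p = 0.0141, which was 0.0622 with no filter on low values, and without full-length NFIA replicate 2 the change was -0.25, adjusted p = 0.0349), and the mutant difference was 0.18 (95% interval -0.10 to 0.46, adjusted p = 0.264). The forskolin response of Jam3 in control cells was -0.39 (95% interval -0.68 to -0.11, adjusted p = 0.0506), and it passed the test in 6 of the fits that left out a full-length NFIA or mutant sample and in the fit of those 2 groups alone (adjusted p = 0.0019). After forskolin Jam3 lay at 4.04, 3.80 and 4.15, at 4.95, 3.16 and 3.54, and at 4.46, 5.88 and 4.82 FPKM in the same order of cell types. The mutant difference from control cells was 0.27 (95% interval -0.02 to 0.56, adjusted p = 0.111), which passed the test without full-length NFIA replicate 1 (adjusted p = 0.0316). The mutant exceeded full-length NFIA by 0.32 at an adjusted p of 0.0478 with overlapping samples, a call that was lost in 7 of the 9 fits that left out 1 sample of this time point (adjusted p from 0.0613 to 0.18, the highest without full-length NFIA replicate 2), after scaling (0.21, adjusted p = 0.184), with no filter on low values (adjusted p = 0.161) and in the fit of those 2 groups alone (adjusted p = 0.0824). The Jam2 to Jam3 ratio lay between 1.89 and 3.99 in all 9 groups, so Jam2 was the more abundant member of the pair throughout.

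Of 12 partners and relatives of the junctional adhesion molecules, 7 were tested at day 7, and 2 were higher and 2 lower with full-length NFIA, where 31.3% of all genes were called higher and 41.1% lower. F11r (JAM-A) had the lowest fold change, with 16.1, 14.8 and 16.4 FPKM in control cells, 5.26, 5.99 and 6.63 FPKM with full-length NFIA and 20.1, 21.0 and 21.0 FPKM with the mutant. Its log2 fold change was -1.27 (SE 0.08, adjusted p = 1.42e-07) with full-length NFIA and 0.37 (SE 0.08, adjusted p = 0.00263) with the mutant. Tjp1 (ZO-1), a scaffold of tight junctions, was lower with full-length NFIA by 0.39 on the log2 scale (fold change -0.39, adjusted p = 0.000245), and Afdn (afadin), which links adhesion molecules to actin, was higher (0.65, adjusted p = 4.09e-06). The kinase Prkci was also higher (0.30, adjusted p = 0.00411). Esam, another member of the family, was at a mean of 0.0528 FPKM or less in all cells at day 7 and was not tested.

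**Figure D2:**
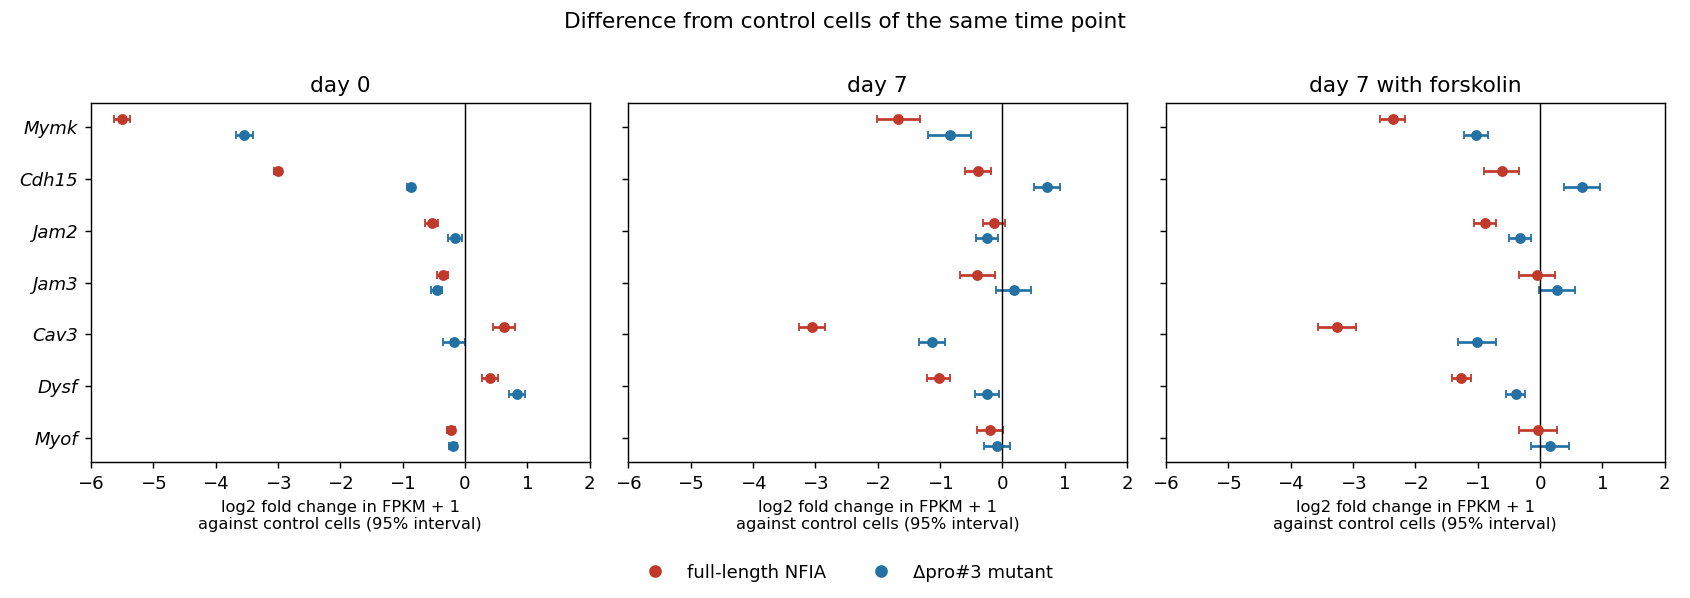
Log2 fold change in FPKM + 1 against control cells of the same time point for full-length NFIA (red) and the Δpro#3 mutant (blue) at day 0, day 7 and day 7 with forskolin; points are limma estimates from 3 replicates per group and bars their 95% intervals. Cdh15 lies left of 0 with both constructs at day 0 and right of 0 with the mutant at day 7 (0.71), Cav3 reaches -3.06 with full-length NFIA at day 7, and the intervals of Myof include 0 at day 7 with both constructs.

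Cav3 encodes caveolin-3, which coats the caveolae of muscle fibers and the tubules forming in them, at chr6:112409495-112422865 (mm9, plus strand). At day 0 it was close to the limit of detection, with 0.474, 0.635 and 0.497 FPKM in control cells, 1.35, 1.23 and 1.53 FPKM with full-length NFIA and 0.394, 0.246 and 0.433 FPKM with the mutant. These groups rested on 48, 96 and 30 fragments. Cav3 passed the filter of a mean of 0.5 FPKM at day 0 through the full-length NFIA samples, where it was highest, so its day 0 differences from control cells are given as a description, 0.63 with full-length NFIA and -0.18 with the mutant on the log2 scale (SE 0.08).

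At day 7 the Cav3 samples read 42.8, 44.1 and 45.2 FPKM in control cells, 5.33, 4.07 and 3.93 FPKM with full-length NFIA and 18.8, 21.1 and 18.7 FPKM with the mutant. The groups were far apart, in the order control, mutant, full-length NFIA. The mean was 9.91-fold lower with full-length NFIA (log2 fold change -3.06, SE 0.09, adjusted p = 1.33e-09) and 2.25-fold lower with the mutant (log2 fold change -1.13, SE 0.09, adjusted p = 1.01e-05), and the mutant exceeded full-length NFIA 4.40-fold (adjusted p = 4.32e-08). From day 0 to day 7 Cav3 rose by 4.88 on the log2 scale in control cells, 1.19 with full-length NFIA and 3.92 with the mutant (adjusted p = 4.24e-17, 1.38e-09 and 3.56e-16). The day 7 effect minus the day 0 effect rests on the same low day 0 levels and is likewise a description, -3.68 for full-length NFIA and -0.96 for the mutant (SE 0.12), the latter -0.57 by limma-voom on fragments. After forskolin Cav3 read 36.5, 38.7 and 30.05 in control cells, 3.30, 3.01 and 2.10 with full-length NFIA and 15.4, 19.6 and 15.8 with the mutant. The fall on forskolin passed the test with full-length NFIA (log2 fold change -0.52, adjusted p = 0.00225), whereas control cells changed by -0.33 (95% interval -0.59 to -0.06, adjusted p = 0.0807), which passed the test in the fit of those 2 groups alone (adjusted p = 0.0214) and without full-length NFIA replicate 3 after forskolin (adjusted p = 0.0453). The difference between the responses was -0.19 (95% interval -0.57 to 0.18, adjusted p = 0.445).

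The other caveolins ran the other way at day 7. Cav1, the caveolin of adipocytes, fibroblasts and endothelium, measured 40.0, 44.8 and 36.2 FPKM in control cells, 236, 286 and 252 FPKM with full-length NFIA and 57.3, 51.0 and 65.7 FPKM with the mutant. Its log2 fold change was 2.65 (SE 0.11, adjusted p = 9.69e-09) with full-length NFIA and 0.51 (SE 0.11, adjusted p = 0.00321) with the mutant, and at day 0 it was already higher with both (1.88 and 1.29, adjusted p = 6.6e-12 and 3.04e-10). Cav2, its usual companion in the coat, was higher with both as well (2.75 and 0.49, adjusted p = 1.68e-09 and 0.00116). The Cav3 to Cav1 ratio of FPKM at day 7 was 1.10 in control cells, 0.0171 with full-length NFIA and 0.338 with the mutant, on the log2 scale 0.13 ± 0.17, -5.87 ± 0.35 and -1.56 ± 0.27 (SD, n = 3). In the same samples the adipocyte markers given above summed to 363 to 401 FPKM in control cells, 13580 to 15095 with full-length NFIA and 636 to 2053 with the mutant, the endothelial markers were near 0, and the part of either in the Cav1 and Cav2 levels was not tested. Cavin4, the muscle cavin, measured 154, 153 and 166 FPKM in control cells, 36.5, 31.8 and 35.0 FPKM with full-length NFIA and 98.7, 114 and 121 FPKM with the mutant. Its log2 fold change was -2.17 (adjusted p = 4.46e-09) with full-length NFIA and -0.51 (adjusted p = 0.000553) with the mutant. Over the caveolae list, which leaves out Cav3 as a member, 7 genes were higher and 5 lower of 12 tested with full-length NFIA at day 7, with a median of 0.89 against -0.08 over all genes, of which 31.3% were called higher and 41.1% lower. Pacsin3, a membrane-bending protein of muscle, was the second lowest of this list, after Cavin4 (-1.54, adjusted p = 1.18e-07).

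**Figure D3:**
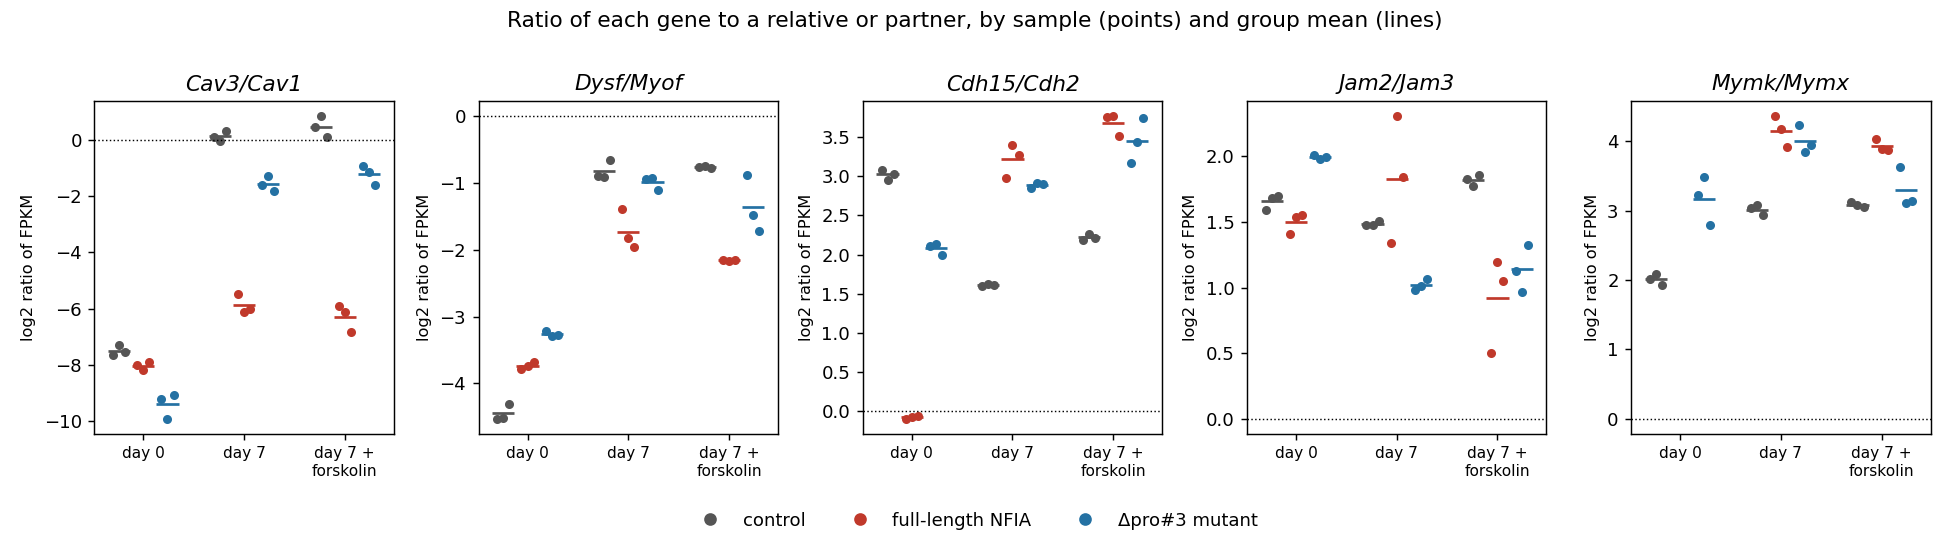
Log2 ratio of FPKM between each member and a relative or partner (Cav3 to Cav1, Dysf to Myof, Cdh15 to Cdh2, Jam2 to Jam3, Mymk to Mymx) in each sample (points) and as the group mean (lines), with 3 replicates per group and a dotted line at equal FPKM. In control cells Cav3 reaches the level of Cav1 at day 7 (0.13), with full-length NFIA it stays at -5.87, and Dysf stays below Myof in all 9 groups; Mymk to Mymx with full-length NFIA at day 0 is left out because Mymx was at 0 in 2 of its 3 samples.

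Dysf encodes dysferlin, the calcium-binding ferlin of the sarcolemma, at chr6:83958584-84161054 (mm9, plus strand). At day 0 it measured 3.61, 3.80 and 4.39 FPKM in control cells, 5.27, 5.64 and 5.63 FPKM with full-length NFIA and 8.02, 7.65 and 7.72 FPKM with the mutant. Both constructs lay above all control samples, and the mutant was the highest. The log2 fold change was 0.40 (SE 0.06, adjusted p = 8.49e-05) with full-length NFIA and 0.84 (SE 0.06, adjusted p = 4.05e-07) with the mutant. At day 7 Dysf read 17.1, 17.5 and 17.8 in control cells, 9.46, 7.02 and 7.88 with full-length NFIA and 14.5, 14.7 and 14.5 with the mutant. Control samples were now the highest. The log2 fold change was -1.03 (SE 0.09, adjusted p = 1.8e-06) with full-length NFIA and -0.25 (SE 0.09, adjusted p = 0.0357) with the mutant, the latter lost when any 1 of the 6 samples of those groups was left out (adjusted p from 0.0671 without control replicate 1 to 0.091 without control replicate 3), after scaling (-0.19, adjusted p = 0.0891) and with no filter on low values (adjusted p = 0.104).

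Dysf rose from day 0 to day 7 in all 3 cell types, 4.44-fold in control cells, 1.47-fold with full-length NFIA and 1.87-fold with the mutant (adjusted p = 6.04e-13, 1.92e-05 and 2.85e-08). The effect at day 7 differed from that at day 0 by -1.43 (SE 0.11, adjusted p = 3.91e-09) for full-length NFIA and by -1.08 (SE 0.11, adjusted p = 4.92e-07) for the mutant. After forskolin it read 12.3, 12.6 and 12.2 FPKM in control cells, 4.203, 4.91 and 4.67 FPKM with full-length NFIA and 9.85, 8.77 and 9.02 FPKM with the mutant. The fall of Dysf on forskolin passed the test in all 3 cell types, by 0.46 in control cells, 0.70 with full-length NFIA and 0.61 with the mutant on the log2 scale (fold changes -0.46, -0.70 and -0.61, adjusted p = 0.000349, 1.36e-06 and 1.42e-05). No other member passed it in all 3 in the same fit, whereas Myof did with all 27 samples in 1 fit and without mutant replicate 3 after forskolin. The full-length NFIA response differed from the control response by -0.24 (95% interval -0.47 to -0.01, adjusted p = 0.115), which passed the test without full-length NFIA replicate 2 at day 7 (-0.32, adjusted p = 0.0226).

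Myof encodes myoferlin, a ferlin of the plasma membrane and of endocytic vesicles, at chr19:37973526-38118067 (mm9, minus strand). It was the most abundant ferlin in all 9 groups. At day 0 it measured 83.6, 87.1 and 86.8 FPKM in control cells, 72.5, 75.5 and 72.4 FPKM with full-length NFIA and 74.5, 74.9 and 75.1 FPKM with the mutant. Control samples lay above both, by a small margin (log2 fold changes -0.22 and -0.20, SE 0.03, adjusted p = 3.16e-05 and 0.000136), which did not pass the test when all 27 samples shared 1 fit (adjusted p = 0.0788 and 0.144). The 2 constructs overlapped, with a difference of 0.03 (95% interval -0.04 to 0.09). By day 7 it had fallen in all cells, to 31.6, 32.8 and 28.0 in control cells, 24.9, 24.9 and 30.6 with full-length NFIA and 27.7, 27.9 and 31.2 with the mutant. The falls were 2.79-fold, 2.74-fold and 2.59-fold (adjusted p = 7.99e-12, 6.92e-12 and 2.36e-11), and all groups overlapped at day 7. The difference from control cells was -0.20 with full-length NFIA (95% interval -0.40 to 0.01, adjusted p = 0.0754) and -0.09 with the mutant (95% interval -0.29 to 0.12, adjusted p = 0.463). The former passed the test without control replicate 3 (-0.26, adjusted p = 0.0356) or without full-length NFIA replicate 3 (-0.29, adjusted p = 0.0105).

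On forskolin Myof fell in control cells from the values above to 20.8, 21.2 and 20.9 FPKM (log2 fold change -0.53, SE 0.13, adjusted p = 0.00671). With full-length NFIA it read 18.7, 22.0 and 20.8 FPKM (-0.37, adjusted p = 0.0223, which was lost without replicate 3 at day 7, adjusted p = 0.114, and without replicate 1 after forskolin, adjusted p = 0.0835). Scaling also ended this call (-0.23, adjusted p = 0.13), as did no filter on low values (adjusted p = 0.0723). With the mutant the samples spread from 18.02 over 24.5 to 29.7 FPKM, and the change of -0.28 had a 95% interval of -0.55 to -0.01 and an adjusted p of 0.0984. It was -0.44 without mutant replicate 3 after forskolin (adjusted p = 0.00946) and -0.09 without mutant replicate 1 (adjusted p = 0.504). Against control cells on forskolin, the log2 fold change of Myof with the mutant was 0.16 (95% interval -0.14 to 0.47, adjusted p = 0.355), and it was 0.35 without mutant replicate 1 (adjusted p = 0.00967) and 0.00477 without mutant replicate 3 (adjusted p = 0.979). The Dysf to Myof ratio of FPKM climbed from 0.0457 at day 0 to 0.568 at day 7 in control cells, from 0.0751 to 0.302 with full-length NFIA and from 0.104 to 0.504 with the mutant. Fer1l5, another ferlin, was at a mean of 0.0125 FPKM or less at day 0 and day 7 and was not tested.

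The membrane repair list held 31 genes found in the files, of which 27 were tested at day 7. With full-length NFIA 13 were higher and 8 lower, and with the mutant 15 were higher and 3 lower (medians 0.17 and 0.18, against -0.08 and -0.04 over all genes). Of all genes 31.3% were called higher and 41.1% lower with full-length NFIA, and 21.3% and 27.5% with the mutant. Trim72, the ligase that nucleates the repair patch, had the lowest fold change with full-length NFIA, with 69.8, 69.9 and 85.0 FPKM in control cells, 14.6, 11.04 and 11.4 FPKM with full-length NFIA and 69.7, 70.0 and 62.7 FPKM with the mutant. Its log2 fold change was -2.51 (SE 0.11, adjusted p = 1.43e-08) with full-length NFIA, and with the mutant -0.14 (adjusted p = 0.297). Ano5, a calcium-dependent membrane protein whose loss causes muscular dystrophy, was next (-1.50, adjusted p = 8.8e-06), with a mean of 2.79 FPKM in control cells and 0.227, 0.112 and 0.761 FPKM with full-length NFIA. Without replicate 3 the mean of Ano5 with full-length NFIA was 0.1695 in place of 0.367 FPKM and the log2 fold change -1.69. The day 0 means were 13.1 FPKM in control cells and 0.0364 FPKM with full-length NFIA. Anxa2 and S100a10, which form a complex at the membrane, had the highest fold changes, 2.69 and 1.27 (adjusted p = 2.9e-10 and 1.15e-08). Anxa2 read 292, 285 and 271 FPKM in control cells and 1759, 1886 and 1858 FPKM with full-length NFIA.

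A pair of further lists covered fusion itself. Of the adhesion and surface genes 16 were tested at day 7, and 9 were lower and 5 higher with full-length NFIA, 8 lower and 2 higher with the mutant. The shares of all genes were 41.1% lower and 31.3% higher with full-length NFIA, and 27.5% and 21.3% with the mutant. At day 0 the list held 10 lower genes with each construct, and 6 higher with full-length NFIA and 4 with the mutant. Of all genes 35.6% and 29.7% were called lower and 37.7% and 32.5% higher (medians -0.53 and -0.45 over 17 tested, against 0.01 over all genes). Mymx and Itga4, the alpha-4 integrin, passed the filter at day 0 through the control samples, where they were highest (means 14.8 and 2.34 FPKM). The day 0 counts and medians of this list include them and are given as a description. Mymx and Itga4 had the lowest fold changes with full-length NFIA at day 7 (-2.64 and -1.97). Itga4 then read 3.51, 3.74 and 4.91 FPKM in control cells and 0.181, 0.109 and 0.614 FPKM with full-length NFIA. Its mean with the mutant was 0.367 FPKM. It passed the filter at day 7 through the control samples, so its fold change is a description, and the day 7 counts of this list include it. Boc, a receptor that promotes myogenesis, and Adam12, a metalloprotease of fusing myoblasts, had the highest fold changes (1.76 and 1.59, adjusted p = 9.87e-08 and 2.17e-07). Of the signalling and actin genes 26 were tested at day 7, and 11 were higher and 10 lower with full-length NFIA, 8 higher and 5 lower with the mutant, against the same shares of all genes. Wipf1, which binds the actin regulator WASP, and Trio, an exchange factor for Rac, were the lowest (-1.05 and -0.79, adjusted p = 8.49e-07 and 1.44e-06). Iqsec1, an exchange factor for Arf proteins, and Arhgap26 were the highest with full-length NFIA (1.78 and 1.82, adjusted p = 2.83e-09 and 2.86e-08).

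**Figure D4:**
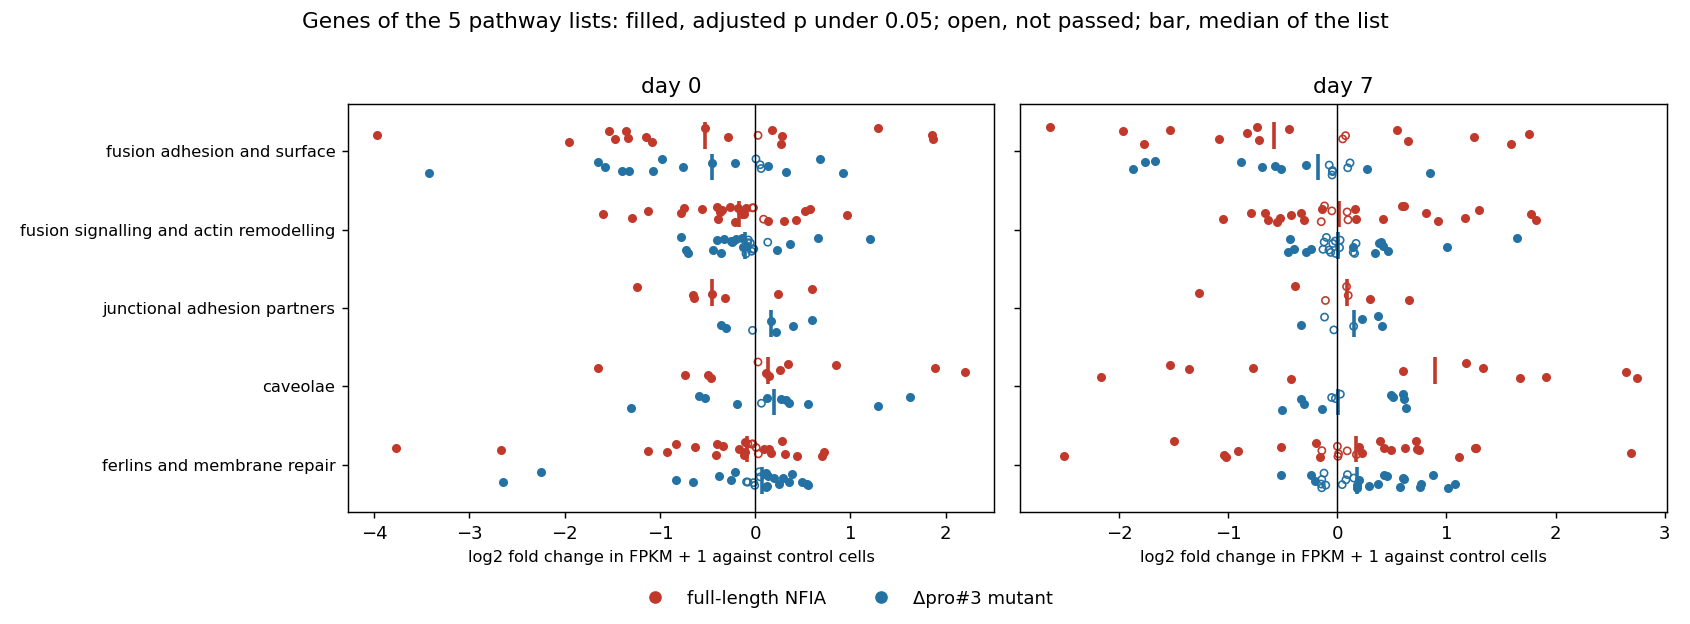
Log2 fold change in FPKM + 1 against control cells of each tested gene of 5 pathway lists (rows) with full-length NFIA (red) and the Δpro#3 mutant (blue) at day 0 and day 7; filled points have an adjusted p under 0.05, open points do not, and the bar is the median of the list. The adhesion and surface list has its median below 0 with full-length NFIA at both times (-0.53 and -0.58), and the caveolae list has its median at 0.89 at day 7 with genes on both sides. The adhesion and surface list includes Mymx and Itga4 at day 0 and Itga4 at day 7, which passed the filter through the control samples.

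Counted together, the members are read against the share of all tested genes called in the same comparison. At day 0 Cav3 is left out of the counts, since the full-length NFIA samples let it pass the filter. With full-length NFIA at day 0, 1 of the other 6 was higher (Dysf) and 5 lower, where 37.7% and 35.6% of all genes were called, and Mymk and Cdh15 changed over 3-fold, counted here and below in FPKM + 1, against 5.24%. With the mutant at day 0, 1 of the same 6 was higher (Dysf) and 5 lower against 32.5% and 29.7%, and 1, Mymk, passed 3-fold against 2.18%. At day 7 with full-length NFIA 5 were lower against 41.1% and none was called higher against 31.3%, and Cav3 and Mymk passed 3-fold against 8.17%. At day 7 with the mutant 1 was higher (Cdh15) and 4 lower against 21.3% and 27.5%, where 1.44% passed 3-fold and no member did. That count of 5 was 3 without any 1 of the control samples or without mutant replicate 1 or 2, and 4 without mutant replicate 3. After forskolin 5 were lower with full-length NFIA against 47.0% (25.5% were called higher), with Cav3 and Mymk past 3-fold against 8.02%, and with the mutant 1 was higher and 4 lower against 19.5% and 27.1%, with 1.55% of genes past 3-fold and no member. Between the mutant and full-length NFIA, 4 of the 6 members other than Cav3 differed at day 0, and of all 7 members 5 differed at day 7 and 6 after forskolin, against 65.3%, 63.7% and 66.2% of all genes.

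From day 0 to day 7, 3 members rose and 4 fell in control cells against 36.0% and 42.7% of genes, with 3 over 3-fold (Cav3, Dysf and Mymk) against 6.70%. With full-length NFIA 4 rose and 3 fell against 33.2% and 46.5%, with 1 over 3-fold (Mymk) against 10.1%, while Cav3 rose 3.25-fold in mean FPKM but 2.29-fold in FPKM + 1. With the mutant 3 rose and 3 fell against 32.8% and 46.7%, with 2 over 3-fold (Cav3 and Mymk) against 6.84%. Among the falls with the mutant, that of Jam3 (-0.24, adjusted p = 0.0332) was lost without replicate 2 or 3 of the mutant at day 0 or replicate 1 or 2 at day 7 (adjusted p 0.0797 to 0.0998) and was -0.12 (adjusted p = 0.249) after scaling. It was also lost with no filter on low values (adjusted p = 0.0819) and with all 27 samples in 1 fit (adjusted p = 0.0635). Forskolin changed 2 members in control cells, 5 with full-length NFIA and 1 with the mutant, against 20.5%, 55.4% and 35.8% of genes. That 1 became 3 without mutant replicate 3 after forskolin, and 2 without mutant replicate 1 at day 7, without full-length NFIA replicate 1 at day 7 or without control replicate 2 after forskolin. With all 27 samples in 1 fit, forskolin changed 4 members in control cells and 4 in mutant cells. With Cav3 again left out, the effect of full-length NFIA differed between day 7 and day 0 for 4 of the other 6 members against 71.2%, and that of the mutant for 4 against 44.7%, where Jam3 differed by 0.63 (SE 0.14, adjusted p = 0.00134). The forskolin response differed with full-length NFIA for 2 members, Jam2 and Mymk, against 30.6%. With the mutant it differed for 0 members against 4.97% by limma, and also for 0 at an unadjusted p under 0.05 and by limma-voom.

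The deposited FPKM are not scaled between samples, and median-ratio scaling moved the balance of all calls. Of the genes called between full-length NFIA and control cells after forskolin, 35.2% were higher as deposited and 49.7% after scaling, with medians of all genes of -0.17 and -0.01. For the mutant against full-length NFIA after forskolin these shares were 63.4% and 50.2% (medians 0.12 and 0.01). For day 7 against day 0 with full-length NFIA they were 41.6% and 51.7% (medians -0.11 and 0.01), and with the mutant the medians were -0.11 and -0.0013. For forskolin they were 34.3% and 51.7% in control cells and 25% and 43.9% with full-length NFIA (medians -0.15 and -0.04), for the difference in forskolin response with full-length NFIA 29.9% and 45.3% (medians -0.10 and -0.03), and for the time difference with the mutant 42.2% and 53.1%. Against control cells at day 7 the shares were 43.6% and 53.2% with the mutant and 43.2% and 50.9% with full-length NFIA, and after forskolin 41.9% and 51.3% with the mutant, so that in each of these the majority of calls turned from lower to higher. After scaling, the differences of Myof and Jam3 between full-length NFIA-expressing and control cells on forskolin turned from -0.03 to 0.15 and from -0.05 to 0.10, neither of which passed the test.

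Over the 27 samples, which share constructs and times in groups of 3, Myof correlated with Jam2 (Pearson's r = 0.926) and Jam3 (0.885), Cav3 with Dysf (0.854) and Mymk (0.782), and Cdh15 with no other member above 0.411 on the log2(FPKM + 1) scale. Among 11582 genes that averaged at least 1 FPKM, the profile most like that of Mymk was Myog (r = 0.992), followed by Myh3 (0.991) and Mylpf (0.988), a myogenic factor, a myosin heavy chain and a myosin light chain. For Cav3 they were Adprhl1 (0.985), Mybpc1 (0.985) and Aen (0.984), and for Dysf Ldb3 (0.953), Pdss2 (0.946) and Cavin4 (0.936). For Myof they were Myo9b (0.989), Trim37 (0.989) and Gnb4 (0.987), for Jam2 S100pbp (0.984), Numa1 (0.980) and Patz1 (0.978), for Jam3 Srf (0.940), Trpm4 (0.938) and Myl6 (0.932), and for Cdh15 Arhgef2 (0.933), Plppr3 (0.930) and Tpcn1 (0.905).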

How the data were processed

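Poly(A) RNA from 27 C2C12 samples was sequenced with a stranded library kit. According to the study's methods and the labels, the authors aligned reads to mm9 with STAR 2.5.3a, kept uniquely mapped reads, counted them per gene on the matching strand and deposited FPKM. The gene annotation is not given in the sources used here. Multiplied by gene length, 100% of the values came out as whole fragments (tolerance 0.01), which gave the depth. FPKM are relative to all fragments of a sample, so a large change in abundant genes moves all others.

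The deposited FPKM were transformed to log2(FPKM + 1), which understates changes of low genes, and tested with limma 3.58.1 (R 4.3.3, trend, 1 mean per group, Benjamini-Hochberg over genes with a mean of 0.5 FPKM or more). Comparisons at 1 time point used its 9 samples, and comparisons across times or forskolin used 18, with interaction terms for differences between effects. The comparisons share control samples. The members, lists and markers were chosen with earlier results of these data known. Named beside the members were their close relatives and partners, the 2 highest and 2 lowest genes of each list with full-length NFIA at day 7, and the 3 genes whose profile correlated best with each member. Alternatives were a pseudocount of 0.1, median-ratio scaling, no filter or a mean of 5 FPKM, all 27 samples or only the groups compared, no trend, a replicate block, limma-voom on fragments and leaving out each sample. Leaving out samples for the named list genes was chosen after seeing the data. Between replicates, fragments differed by more than sampling noise in all 27 pairs (chi-square per gene 1.545 to 14.97). The highest values, 11.91 to 14.97, were in pairs with replicate 1 of mutant cells at day 7 or of full-length NFIA-expressing or mutant cells after forskolin. Other pairs reached at most 6.638. Replicate numbers did not pair the samples. Figures were drawn with matplotlib 3.10.9 (Python 3.11.15).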

Additional observations from a re-analysis of the deposited data

Results flagged for a closer look

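The following effects differed between time points or cell types by a test of the difference itself, an interaction term in limma on the log2(FPKM + 1) scale, with 3 replicates per group. For full-length NFIA against control cells, the effect at day 7 minus that at day 0 was 2.61 for Cdh15 (adjusted p = 9.65e-13), -1.43 for Dysf (adjusted p = 3.91e-09), 0.39 for Jam2 (adjusted p = 0.00159) and 3.83 for Mymk (adjusted p = 9.84e-12). For the Δpro#3 mutant it was 1.59 for Cdh15 (adjusted p = 2.61e-09), -1.08 for Dysf (adjusted p = 4.92e-07), 0.63 for Jam3 (adjusted p = 0.00134) and 2.69 for Mymk (adjusted p = 4.29e-09). For Cav3 the same quantity came to -3.68 (full-length NFIA) and -0.96 (mutant, or -0.57 by limma-voom on fragments), given as a description because it rests on the low day 0 levels. The forskolin response with full-length NFIA differed from that of control cells by -0.74 for Jam2 (adjusted p = 0.000177) and by -0.69 for Mymk (adjusted p = 0.0128). No group had 4 or more samples, so single samples were not tested for standing apart.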

How the results depend on the processing

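Of 89 member differences that passed the threshold, 79 kept their direction and their side of it under every alternative run, and of 44 that did not pass, 22 did. The number of members changed between Δpro#3 mutant-expressing and control cells at day 7 was 5, and 3 both after median-ratio scaling and with no filter on low values, and 3 to 5 when 1 sample was left out. The number changed by forskolin in control cells was 2, and 4 with all 27 samples in 1 fit, with only the groups compared and by limma-voom. In mutant cells it was 1, and 2 with a minimum mean of 5 FPKM, 4 with all 27 samples, 3 by limma-voom and 1 to 3 when 1 sample was left out. The cause was not tested.

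With the replicate number as a block this last number was 2, and the block changed the calls of 3 of 133 member differences: Jam3 between mutant and full-length NFIA on forskolin was lost (adjusted p = 0.0694), and the forskolin responses of Cav3 in control cells (adjusted p = 0.0457) and of Jam2 in mutant cells (adjusted p = 0.024) were gained. The numbers did not pair the samples, since same-number correlations of deviations ran from -0.173 to 0.131 and 1 of 9 samples per time point correlated best with its own number.

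The direction turned only for differences that did not pass the threshold. Between full-length NFIA-expressing and control cells on forskolin, Myof was 0.15 and Jam3 0.10 after scaling, and -0.0829 to 0.0284 for Myof and -0.20 to 0.0562 for Jam3 with 1 sample left out. The forskolin response of Jam3 with full-length NFIA was 0.0712 after scaling, 0.0233 by limma-voom and -0.19 to 0.10 with 1 sample left out. That of Mymk in control cells ran from -0.0415 to 0.0492 and that of Cdh15 in mutant cells from -0.12 to 0.11. The time difference of the full-length NFIA effect was 0.0223 for Jam3 after scaling, and with 1 sample left out -0.18 to 0.11 for Jam3 and -0.0705 to 0.0733 for Myof. The difference in forskolin response of mutant cells ran from -0.17 to 0.0628 for Cdh15, -0.14 to 0.00230 for Jam2 and -0.00406 to 0.16 for Jam3. Depth limits Mymk and Mymx with full-length NFIA at day 0 (30 fragments and 1 fragment over 3 samples) and Cav3 at day 0 in all cells.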
